A study of Mus musculus with 2 samples.

Results

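The genes described here are 39 regulators of the cell division cycle: cyclins, cyclin-dependent kinases (CDKs), the phosphatases and kinases that switch CDKs on and off, CDK inhibitors, the retinoblastoma (Rb) family, E2F transcription factors, Skp2, Myc and Mycn. They were chosen by symbol, and every probe set that the array's platform annotation pairs with one of these symbols alone was taken. Of the 39 genes, 38 had such a probe set, 87 probe sets in all, among 18193 named genes of the array. A gene counted as measured when a probe set lay above a floor on at least 1 array. The floor was the 50th percentile of all values, a signal of 64.7 or 6.02 on the log2 scale. This left 37 measured members of 11805 measured genes. Ccnb1 had no probe set that names it here and was not analysed. Ccna1, the cyclin A of the germ line, was below the floor on both arrays, with signals of 19.1 and 13.4.

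Messenger RNA was measured in E14 cells, an established mouse embryonic stem cell line, on 1 Affymetrix array per group. One group carried a lentiviral short hairpin RNA (shRNA) for Mll2, a histone methyltransferase, and the other a control shRNA delivered by lentivirus. Both samples have the same protocol text in the labels, with infection for 24 h and puromycin at 2 mg/ml for 5 days, and that text names only the Mll2 shRNA. The dose is as printed in the labels, and its unit may be a slip, since puromycin is normally used at micrograms per ml. The labels give neither the hairpin sequences nor whether cells were pooled or cloned. With 1 array per group there is no replicate check and no test, and every difference below compares 2 arrays. Each ratio divides the Mll2 shRNA signal by the control signal and is given on the log2 scale, so 1 is a 2-fold higher signal and -1 a 2-fold lower one.

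Medians were 6.01 and 6.03 on the log2 scale, with Mll2 shRNA first here and in the values that follow, on arrays that MAS5 had scaled to the same mean. Listed at 0 were 465 and 313 probe sets, and the actin control probe sets differed between 3' and 5' ends by 0.77 and 0.96 on the log2 scale. Of the 2 genes that have been called Mll2, Kmt2d gave a signal of 335 with Mll2 shRNA and 736 with control shRNA (ratio -1.14), and Kmt2b 852 and 901 (ratio -0.08). All 10 embryonic stem cell markers were measured, Pou5f1, Sox2 and Zfp42 among them, with ratios from -0.65 to 0.59, 9 of them beyond the spread at their level defined below, and a summed signal of 89487 with Mll2 shRNA and 92911 with control shRNA. Of 9 fibroblast markers 3 were measured (summed signal over all 9, 749 and 605), and Thy1, Postn, Lum, Dcn, Pdgfra and Fbln2 were below the floor on both arrays. Of 6 trophoblast markers 5 were measured (1982 and 2274), and of 6 primitive endoderm markers 4 (637 and 603). Members of each list went both ways. The trophoblast sum was carried by Krt7 (328 and 585), while 3 of the 5 measured trophoblast markers were above 0. Among fibroblast markers Col1a1 was lower and Col1a2 and Col3a1 higher, and among primitive endoderm markers Dab2 was lower and the other 3 higher. Their part in the ratios below was not tested.

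A cell commits to division in G1, when D-type cyclins bind Cdk4 or Cdk6 and begin to phosphorylate Rb proteins, which otherwise hold E2F factors in check. Released E2F factors turn on cyclin E, cyclin A and the genes of DNA replication, Cdk2 takes the cell through S phase, and Cdk1 with cyclins A and B drives mitosis. Embryonic stem cells are known for a short G1, high cyclin E and low levels of most CDK inhibitors. RNA from a whole culture averages over cells in all phases, so a different share of cells in a phase and a different amount of RNA per cell cannot be told apart.

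Among the 37 measured members 1 was higher by 2-fold or more with Mll2 shRNA, the D-type cyclin gene Ccnd2, where 1.47% of all measured genes were. No member was at least 2-fold lower, against 0.983% of all measured genes. At least 1.5-fold higher were 3 members, Ccnd2, Cdkn1b and E2f2, where the share over all measured genes was 7.40%. The E2f2 probe sets disagreed in direction, and E2f2 was no longer counted with the mean over probe sets (0.20), a pseudocount or the 70th-percentile floor. Myc was the 1 member at least 1.5-fold lower, against 4.68% of all genes. Both 1.5-fold counts therefore lay near the background. Ratios of the members ran from -0.59 to 1.21 with a median of 0.10, and the median of all measured genes was 0.03. Of the members, 22 were above 0 and 15 below (59.5% above 0, against 53.5% of all measured genes). For each gene a spread at its level was computed from the 500 measured genes nearest in mean signal, as the median absolute deviation of their ratios scaled to match an SD. It holds real differences as well as noise. The ratio was larger than this spread in 19 members (51.4%), and in 33.5% of all measured genes. Scaling on bacterial spike-in controls raised the median ratio of all genes by 0.11. With it 26 members were above 0 and 11 below, 70.3%, against 68.0% of all genes, so the sign counts of members lay near the background under both scalings. Sign counts of smaller groups below stand against the same shares, 53.5% as deposited and 68.0% with spike-in scaling.

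**Figure D1:**
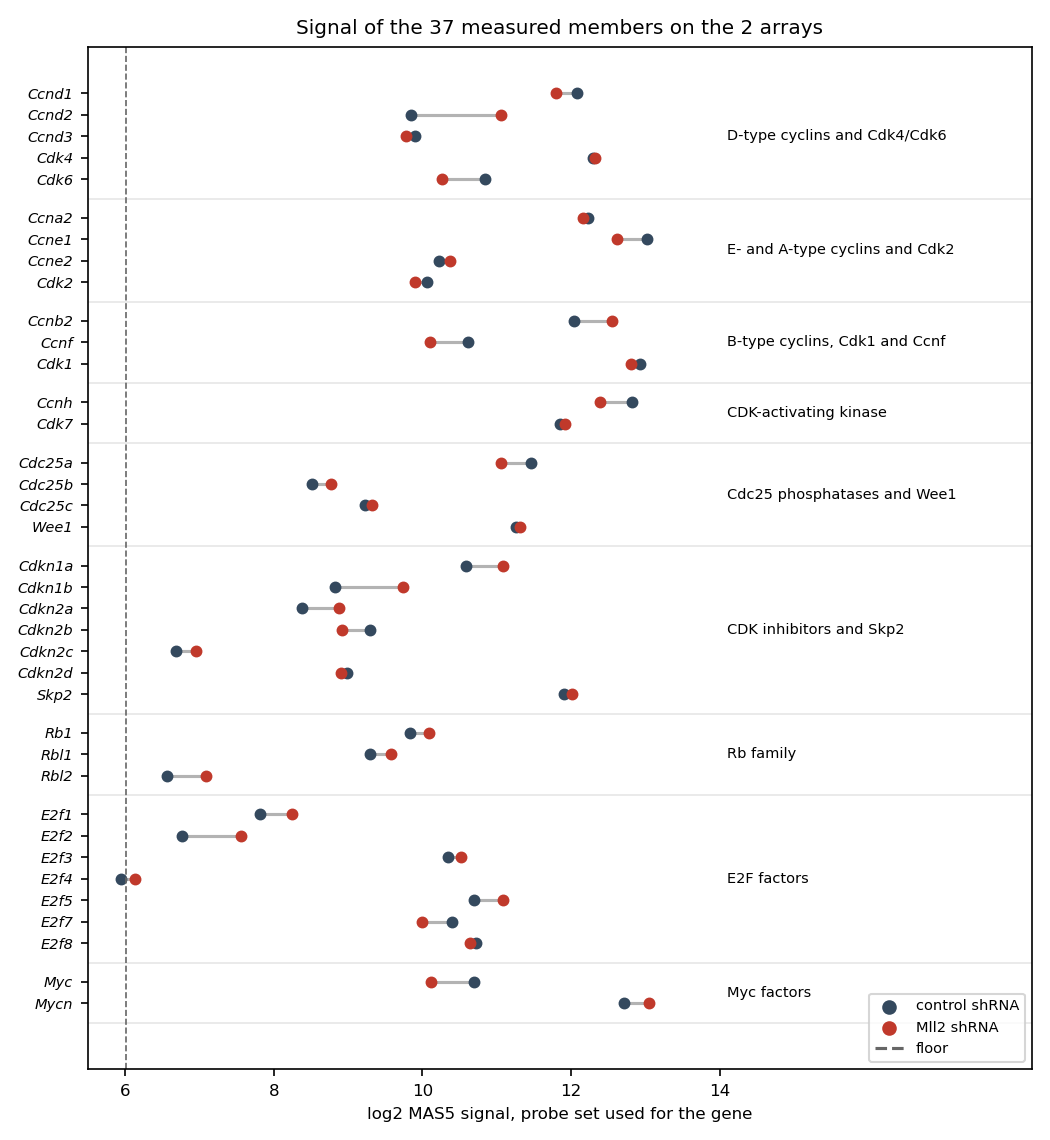
Signal of the 37 measured members (log2 MAS5 signal, x axis) in the control shRNA array (dark points) and the Mll2 shRNA array (red points), 1 array each, from the representative probe set of each gene; the dashed line is the floor. Ccnd2 has the widest gap, 9.85 in the control against 11.06, and most other pairs of points lie close together; signals of different genes come from different probes and are not comparable with each other.

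Ccnd2 encodes cyclin D2, a partner of Cdk4 and Cdk6 in G1. In the brightest probe set its signal was 2137 with Mll2 shRNA and 924 with control shRNA, 2.31-fold higher (ratio 1.21, spread at its level 0.27). No ratio as large was found among its 500 neighbours in level. Ccnd2 has 7 probe sets on the array, and 6 passed the floor on both arrays. After the brightest, their signals were 1775 against 812, 1384 against 597 and 1284 against 580. The dimmer ones had 791 against 379 and 390 against 182. The difference thus had the same direction and nearly the same size in probe sets whose control signals ranged from 182 to 924. The 6 ratios averaged 1.14 ± 0.06 (SD over 6 probe sets) and ran from 1.06 to 1.21. The remaining one did not reach the floor, at signals of 51.0 and 37.4. Because probe sets for the same gene may overlap and come from the same hybridisations, this SD says nothing about variation between cultures. Under all scalings tried the Ccnd2 ratio stayed between 1.19 and 1.33.

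How common such agreement was on these arrays was counted after the Ccnd2 values were seen. The cut of 6 probe sets used first is the number that Ccnd2 itself has above the floor. Over all genes, 118 had at least 6 probe sets that passed the floor on both arrays, and Ccnd2 was the only one in which all of them were at least 2-fold apart in 1 direction. With at least 3 probe sets there were 1899 genes, of which Ccnd2 and Ulk2 were at least 2-fold higher in all and Slc9a3r1 at least 2-fold lower in all. With at least 2 there were 4713 genes. Of these 7, Ccnd2 among them, were at least 2-fold higher in all and 5 at least 2-fold lower in all.

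No other gene of this step came near the ratio of Ccnd2. Ccnd1, the cyclin D1 gene, gave 3546 with Mll2 shRNA and 4339 with control shRNA (ratio -0.29, spread 0.22). Its other probe sets gave -0.12 and -0.16, so all 3 were slightly lower. Ccnd3, the cyclin D3 gene, had 879 and 955 (ratio -0.12), inside its spread of 0.27. The Ccnd2 ratio lay 1.33 above that of Ccnd3. Cdk4 was nearly equal on the 2 arrays, at 5108 and 5030 (ratio 0.02), and its 3 probe sets ran from 0.01 to 0.14. Cdk6, the other kinase that binds D-type cyclins, was lower, at 1226 against 1835 (ratio -0.58, spread 0.28). A second Cdk6 probe set, with 1027 against 1499, gave -0.55. The third, near the floor at 79.6 and 64.7, went the other way by at least 0.30. A ratio as low was found in 8 of its 500 neighbours in level.

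**Figure D2:**
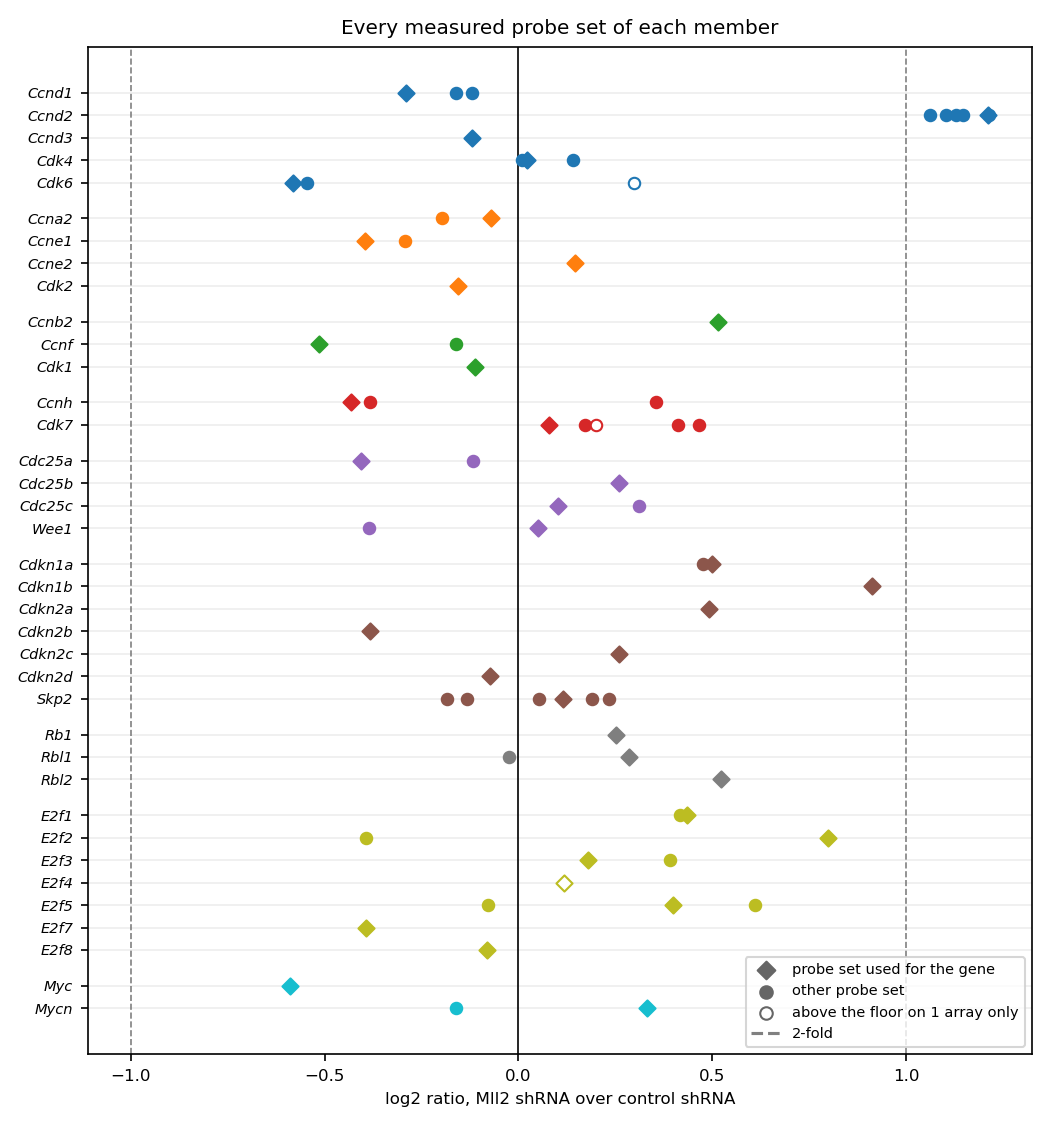
Log2 ratio (Mll2 shRNA over control shRNA, x axis) of every measured probe set of each measured member; diamonds are the probe sets used for the gene, open symbols were above the floor on 1 array only, dashed lines mark 2-fold, and colours mark the groups by role. The 6 Ccnd2 probe sets lie together between 1.06 and 1.21, whereas those of E2f2 (0.80 and -0.39) and of Ccnh lie on both sides of 0.

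Of the E- and A-type cyclins and Cdk2, which act from late G1 through S phase, Ccne1 alone differed by more than the spread at its level. Ccne1, the cyclin E1 gene, gave 6303 with Mll2 shRNA and 8293 with control shRNA (ratio -0.40, spread 0.19). Its second probe set, at 3588 and 4395, gave -0.29, the same direction. Ccne2 was at 1326 and 1199 (ratio 0.15), Ccna2 at 4565 and 4797 (ratio -0.07) and Cdk2 at 955 and 1065 (ratio -0.16). These 3 lay inside the spread at their level, and the Ccna2 ratio became 0.05 with spike-in scaling.

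Genes of mitotic entry had no common direction in the probe sets used. Ccnb2 encodes cyclin B2, a partner of Cdk1. Its signal was 5998 with Mll2 shRNA and 4200 with control shRNA (ratio 0.51, spread 0.20), in a single probe set. Ccnf, whose product cyclin F is a substrate receptor of an SCF ubiquitin ligase and binds no CDK as an activator, had 1094 and 1562 (ratio -0.51, spread 0.25). Its second probe set gave a smaller difference, -0.16, which is less in size than that spread. Cdk1 itself was at 7194 and 7779 (ratio -0.11), inside its spread of 0.19, and at 0.0044 with spike-in scaling. Among 500 neighbours in level each, 12 genes matched or passed the Ccnb2 ratio and 11 that of Ccnf.

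Promoters of such genes commonly hold the cell cycle homology region (CHR), an element bound by the DREAM and MuvB complexes, together with CCAAT boxes. Sequences of the 250 bases before the transcription start were available for these 3 genes from RefSeq (GRCm38.p6). They are shown for their motif matches, and a link between matches and ratios was not tested. Capitals mark E2F motifs (TTTCGCGC, TTTCCCGC, TTTGGCGC, TTTGCCGC, TTTCGCCC or TTTGCGCC), CHR motifs (TTTGAA or TTCGAA) and CCAAT, each searched on both strands. The sequences are written 5′ to 3′ on the strand of the gene, ending at the base before the start: Ccnb2 at chr9:70421555-70421804 (minus strand), Ccnf at chr17:24251410-24251659 (minus) and Cdk1 at chr10:69352913-69353162 (minus).
Ccnb2: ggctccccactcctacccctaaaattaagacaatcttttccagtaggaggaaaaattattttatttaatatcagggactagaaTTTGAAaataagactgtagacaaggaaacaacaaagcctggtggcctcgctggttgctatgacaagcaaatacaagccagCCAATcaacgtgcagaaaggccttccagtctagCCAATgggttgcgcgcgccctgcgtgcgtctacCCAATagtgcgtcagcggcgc
Ccnf: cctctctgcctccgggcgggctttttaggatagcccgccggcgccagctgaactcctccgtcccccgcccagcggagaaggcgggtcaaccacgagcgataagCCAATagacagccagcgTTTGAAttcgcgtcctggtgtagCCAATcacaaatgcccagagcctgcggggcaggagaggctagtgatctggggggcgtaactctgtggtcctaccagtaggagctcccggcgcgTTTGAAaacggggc
Cdk1: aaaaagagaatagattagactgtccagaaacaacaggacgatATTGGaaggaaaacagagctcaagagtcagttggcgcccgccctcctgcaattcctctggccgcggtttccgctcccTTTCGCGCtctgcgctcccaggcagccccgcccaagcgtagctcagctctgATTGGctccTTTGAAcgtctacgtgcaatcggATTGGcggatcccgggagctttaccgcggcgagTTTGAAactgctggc
Ccnb2 had 1 CHR match and 3 CCAAT matches, Ccnf 2 and 2, and Cdk1 2 and 3. Only Cdk1 of the 3 also had an E2F motif match, 131 bases before the start. The CHR match of Ccnb2 begins 167 bases before the start, and those closest to the start in Ccnf and Cdk1 begin at 14 and 15. A match describes letters in this window, not a bound site.

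Across the members, 28 genes had an entry among the promoters. Ccnd1, Ccnd2 and Myc were among those without one. An E2F motif was found in 8 of the 28 (28.6%), Cdc25a, Cdk1, Cdk2, Cdkn2a, E2f3, E2f7, Mycn and Rbl1, and in 2.82% of all 27025 genes with a promoter. CHR matches were found in 10 members (35.7%, against 19.6% of all genes) and CCAAT in 16 (57.1%, against 37.5%). The E-box CACGTG, the element bound by Myc with Max, was found in 4 (14.3%, against 6.86%), Cdk4, Cdk6, Cdk7 and E2f3. Of the 32851 promoters themselves, 2.43% held an E2F motif, 17.1% a CHR, 33.8% a CCAAT and 6.02% an E-box. Over the 9559 measured genes with an entry, the shares were 5.27% for the E2F motif and 14.2% for the CHR. For CCAAT and the E-box they were 40.8% and 10.2%. The 8 members with an E2F motif had ratios of both signs, from -0.41 in Cdc25a to 0.49 in Cdkn2a.

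The CDK-activating kinase, in which cyclin H and Cdk7 phosphorylate other CDKs, gave no uniform picture. Ccnh was at 5353 with Mll2 shRNA and 7216 with control shRNA (ratio -0.43, spread 0.20). Its second probe set gave -0.38 but the third 0.35, so the probe sets of Ccnh disagreed in direction. Cdk7 had 3880 and 3676 (ratio 0.08), and all 4 of its probe sets that passed the floor on both arrays were above 0, up to 0.47.

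Cdc25 phosphatases remove the inhibitory phosphates that Wee1 places on CDKs. Cdc25a, the one best known from the G1/S transition, had 2131 and 2823 (ratio -0.41, spread 0.28), with -0.12 in its second probe set. Cdc25b was at 438 and 367 (ratio 0.26), Cdc25c at 641 and 597 (ratio 0.10) and Wee1 at 2541 and 2453 (ratio 0.05), all inside their spreads. The second Wee1 probe set, much dimmer at 218 and 285, gave -0.38.

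CDK inhibitors went in both directions. Cdkn1b encodes p27, an inhibitor of cyclin E-Cdk2 and cyclin A-Cdk2. Its signal was 851 with Mll2 shRNA and 452 with control shRNA, 1.88-fold higher (ratio 0.91, spread 0.34). After Ccnd2 this was the widest difference among the members, and 9 of its 500 neighbours in level had one as high. The value rests on 1 probe set, since the other did not reach the floor, at 51.8 and 38.5. The ratio ran from 0.86 to 1.03 over the scalings and passed 2-fold with the spike-in controls. Cdkn1a encodes p21, the inhibitor induced by p53. It had 2176 and 1539 (ratio 0.50, spread 0.27), and its second probe set gave 0.48. Cdkn2a, the locus of p16 and of the p53 activator p19Arf, was at 470 and 334 (ratio 0.49, spread 0.34), in a single probe set that is not assigned to either transcript here.

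The remaining inhibitors bind Cdk4 and Cdk6. Cdkn2b, the p15 gene that lies beside Cdkn2a, went the other way, at 484 and 630 (ratio -0.38, spread 0.34). Cdkn2c (p18) was at 124 and 103 (ratio 0.26) and Cdkn2d (p19Ink4d) at 480 and 505 (ratio -0.07), both inside their spreads. Of the 6 inhibitor genes Cdkn1a, Cdkn1b and Cdkn2a were higher, and Cdkn2b lower, by more than the spread at their level. Among 500 neighbours in level each, 31 had a ratio as high as Cdkn1a, 57 as high as Cdkn2a and 51 as low as Cdkn2b. Cdkn2d was at 0.04 with spike-in scaling. Skp2, the F-box protein that marks p27 for degradation, was at 4145 and 3830 (ratio 0.11). This ratio of 0.11 lay inside the spread at its level, 0.22. The 6 probe sets of Skp2 ran from -0.18 to 0.23 and averaged 0.05 ± 0.17 (SD over 6 probe sets of the same arrays).

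The promoters of Cdkn1b and Cdk6 are shown because these genes had the widest differences in each direction among members with a promoter entry. Capitals mark CCAAT in Cdkn1b (chr6:134920151-134920400, plus strand) and the E-box CACGTG in Cdk6 (chr5:3343643-3343892, plus strand), again for the 250 bases before the start in GRCm38.p6.
Cdkn1b: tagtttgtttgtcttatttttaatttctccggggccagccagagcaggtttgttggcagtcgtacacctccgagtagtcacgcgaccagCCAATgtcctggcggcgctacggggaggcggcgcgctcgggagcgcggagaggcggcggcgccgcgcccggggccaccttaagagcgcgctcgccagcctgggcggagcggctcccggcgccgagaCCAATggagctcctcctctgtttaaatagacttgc
Cdk6: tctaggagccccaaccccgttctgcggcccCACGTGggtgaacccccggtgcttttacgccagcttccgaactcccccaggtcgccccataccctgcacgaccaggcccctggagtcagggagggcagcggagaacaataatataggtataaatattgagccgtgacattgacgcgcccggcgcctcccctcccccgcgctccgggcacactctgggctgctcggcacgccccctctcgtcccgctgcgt
The CCAAT letters of Cdkn1b begin 161 and 35 bases before the start, and the E-box of Cdk6 begins 220 bases before it. Neither promoter held an E2F or a CHR motif.

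All 3 Rb family genes had ratios above 0, also under every scaling. Rb1, the retinoblastoma gene, was at 1084 with Mll2 shRNA and 910 with control shRNA (ratio 0.25, spread 0.28). Rbl1, which encodes p107, was at 763 and 626 (ratio 0.29, spread 0.31), but its second probe set gave -0.02. Rbl2, which encodes p130, a subunit of the DREAM complex in resting cells, was at 136 and 94.5 (ratio 0.52, spread 0.44). Rbl2 alone of the 3 passed the spread at its level, at a signal not far above the floor of 64.7. A ratio as high as that of Rbl2 was found in 81 of its 500 neighbours in level.

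**Figure D3:**
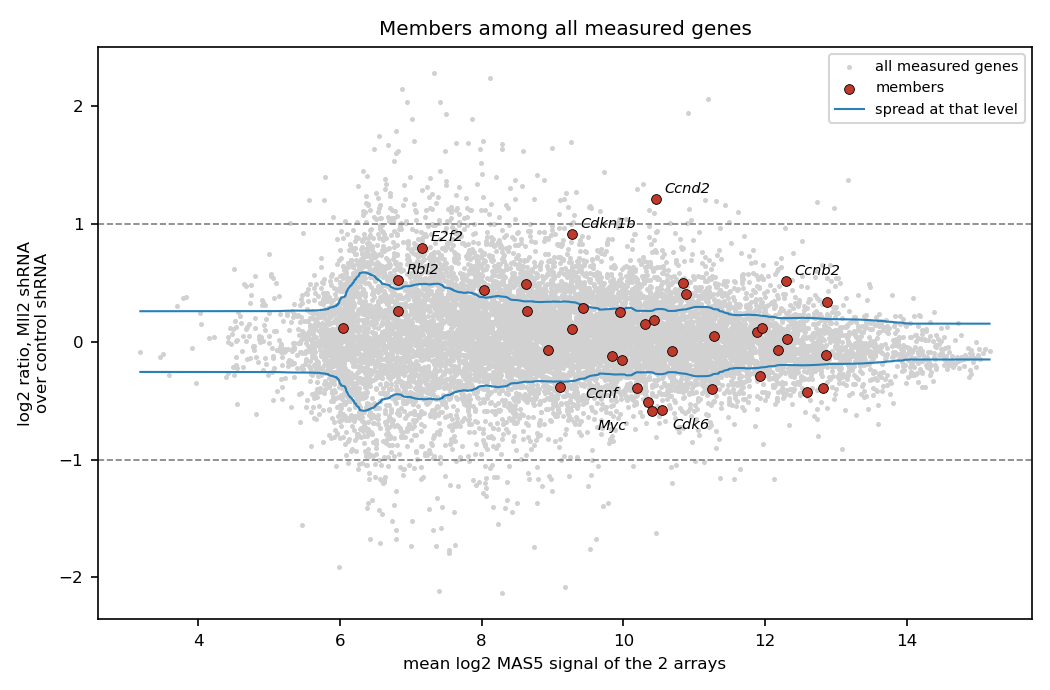
Log2 ratio (Mll2 shRNA over control shRNA, y axis) against the mean log2 signal over both arrays (x axis) for all 11805 measured genes (grey) and the 37 measured members (red); blue lines show the spread at each level, smoothed and drawn on both sides of 0, and dashed lines mark 2-fold. Members with a ratio of at least 0.5 in size are named; only Ccnd2, at 1.21, lies beyond 2-fold.

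E2F factors fall into activators (E2f1, E2f2, E2f3), repressors that act with Rb proteins (E2f4, E2f5) and the atypical repressors E2f7 and E2f8. In the probe sets used the activators had ratios above 0. E2f1 was at 303 with Mll2 shRNA and 224 with control shRNA (ratio 0.43, spread 0.37), and its second probe set gave nearly the same value, 0.42. E2f3 was at 1469 and 1297 (ratio 0.18), inside its spread of 0.27, and at 0.39 in its second probe set. E2f2 had the largest ratio of the family, 188 against 108 (ratio 0.80, spread 0.49). It was not borne out by the second E2f2 probe set, which gave -0.39 at 108 and 142, so no direction can be given for E2f2.

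Among the repressors, E2f5 was higher, at 2180 and 1653 (ratio 0.40, spread 0.27). Its second probe set gave 0.61, while the third, a dim one, gave -0.08. E2f4 was at 70.2 and 61.7, with the control below the floor, a difference of at least 0.12 on the log2 scale. The atypical E2f7 was lower, at 1022 and 1344 (ratio -0.39, spread 0.26), and E2f8 was at 1600 and 1694 (ratio -0.08), inside its spread of 0.26 and at 0.03 with spike-in scaling. The median over the 7 genes was 0.18. E2f1 and E2f5 were higher, and E2f7 lower, by more than the spread at their level. Of these E2f5 had probe sets on both sides of 0, and E2f7 has 1 probe set. Among 500 neighbours in level each, 103 had a ratio as high as E2f1 and 44 as high as E2f5. For E2f7, 34 had one as low. E2f2 passed its spread too and is set aside because its probe sets disagreed.

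Myc and Mycn are related transcription factors of growth and proliferation, both active in embryonic stem cells. They went in opposite directions in the probe sets used. Myc was at 1106 with Mll2 shRNA and 1664 with control shRNA (ratio -0.59, spread 0.26), and 7 of its 500 neighbours in level had one as low. It passed 1.5-fold narrowly and no longer did so with median centring, spike-in scaling or a pseudocount. Mycn was at 8454 and 6720 (ratio 0.33, spread 0.19), but a dimmer probe set, at 312 and 349, gave -0.16. Myc has 1 probe set, so its value has no second reading. The Mycn promoter is shown because it held the most E2F motif matches among the members, 3, of which the first and second overlap (chr12:12941837-12942086, minus strand, GRCm38.p6, E2F motifs in capitals).
Mycn: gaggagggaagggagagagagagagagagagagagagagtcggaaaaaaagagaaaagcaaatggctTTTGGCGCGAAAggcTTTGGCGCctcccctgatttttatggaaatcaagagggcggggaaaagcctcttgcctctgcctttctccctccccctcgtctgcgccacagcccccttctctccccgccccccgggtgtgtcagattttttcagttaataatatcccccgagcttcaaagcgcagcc
The matches begin 183, 179 and 168 bases before the start. The window also holds 1 CHR match, left in lower case.

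Other genes of the pathway were examined in 8 lists. Ccnj was the only gene of these lists at 2-fold, and it no longer was with the 70th-percentile floor or a pseudocount. Cables1, named here after its values were seen, was below the floor with Mll2 shRNA (37.4, against 92.0 with control shRNA) and counted as 2-fold lower with the 30th-percentile floor or none. Of 19 measured other cyclins and CDKs, 11 were above 0 and 8 below (median 0.07), and with spike-in scaling 17 were above 0. Ccnj was 2.23-fold higher, at 486 with Mll2 shRNA and 218 with control shRNA (ratio 1.16, spread 0.37), in 1 probe set. Cdk5, a kinase best known from neurons, was at 299 and 168 (ratio 0.83). Cdk17 was at 0.51 and Ccni at 0.35, with 0.67 and 0.50 in their second probe sets. Among 11 CDK partners and other inhibitors (median 0.0025; -0.02 after quantile normalization), none reached 2-fold. Pkmyt1, a Wee1-related kinase, had the largest ratio, 0.64, with 0.17 in its second probe set. Cdkn3, a CDK phosphatase, was at 0.37, Cdk2ap1 at -0.27 and Chek1, a checkpoint kinase, at -0.17.

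The E2F partners and the DREAM and MuvB subunits had a median of -0.05 over 11 genes, which became 0.01 with quantile normalization, 0.07 with spike-in scaling and 0.14 with the higher floor. Mybl1 was at 0.74, and Mybl2, the B-Myb gene of cycling cells, at -0.37. Tfdp2 was at 0.33 and Lin54 at 0.25, but each had a probe set below 0. The 19 ubiquitin ligase subunits had a median of -0.03, with 9 above 0 and 10 below, and 0.0035 with quantile normalization or 0.09 with spike-in scaling. Rbx1 had their largest difference, -0.49, in 1 dim probe set at 148 and 208 (spread 0.45). Cdc20, the activator of the anaphase-promoting complex, came next at -0.34 (spread 0.15), with all 3 probe sets below 0. Anapc11 was at 0.30 and Anapc1 at -0.21. Anapc11 and Anapc1 each had probe sets on both sides of 0.

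Lists of target genes leaned below 0 by small amounts. Of 24 measured E2F target genes of S phase, 20 were below 0 and 4 above (median -0.15), none at 2-fold. With spike-in scaling 15 were below 0 (median -0.04). Mcm2, a subunit of the replicative helicase, was at 4642 with Mll2 shRNA and 6212 with control shRNA (ratio -0.42, and -0.36 in its second probe set). Pcna, the sliding clamp of DNA polymerases, was at -0.38 and Tk1, thymidine kinase, at 0.37. Tyms, thymidylate synthase, was at -0.86, with signals of 67.7 and 123 near the floor. The 24 mitotic genes leaned the other way, with 15 above 0, 9 below and a median of 0.12 (18 above 0 with quantile normalization and 21 with spike-in scaling). Without probe sets that may match several transcripts the median was 0.01, with 10 above 0 and 9 below. Nusap1, a spindle protein, was at 0.61 with -0.01 in its second probe set, Prc1 at 0.30, Mad2l1 at -0.32, and the kinase gene Aurka at -0.73 in one probe set and 0.62 in the other.

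Of 19 measured Myc target genes, 18 were below 0 (median -0.24), 16 with quantile normalization (median -0.19) and 16 with spike-in scaling (median -0.12). Genes as bright as these were lower on average: the 500 nearest genes of each had medians whose middle value was -0.06, and 17 of the 19 lay below the median of their own neighbours. Srm, spermidine synthase, had the largest difference, 5205 with Mll2 shRNA and 9043 with control shRNA, 1.74-fold lower (ratio -0.80, spread 0.20). It rests on 1 probe set, of the kind that may match several transcripts. Without such probe sets 12 Myc target genes were left, 11 of them below 0 (median -0.22) and 0 at least 1.5-fold lower. Bop1 was at -0.53, with 0.0039 in its second probe set, Pa2g4 at -0.45, with other probe sets from -0.53 to 0.32, and Eif4e, the cap-binding factor, at -0.41, also with a second probe set near 0 (0.0020). The 11 genes listed as Myc partners and antagonists, which include related factors such as Mlxip and Mycl, had a median of -0.17. It was -0.05 both with spike-in scaling and with the mean over probe sets. Mlxip was at -0.58, Mnt, a repressor that pairs with Max, at -0.45, and Mxd1 and Mxi1 at 0.47 and 0.39. Mxd1 lay inside its spread of 0.49, at signals of 119 and 85.7.

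**Figure D4:**
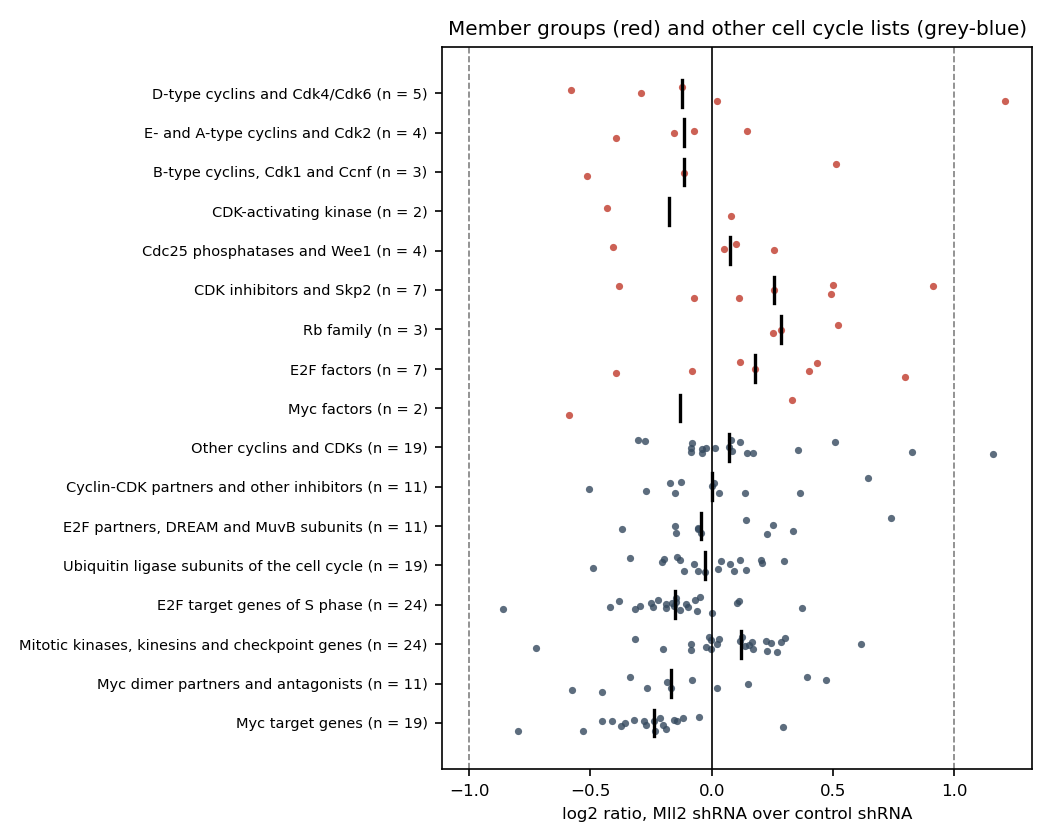
Log2 ratios (Mll2 shRNA over control shRNA, x axis) of the measured members by role (red) and of the genes of 8 other cell cycle and Myc lists (grey-blue), 1 point per gene with the number of genes after each name; black bars are medians and dashed lines mark 2-fold. Myc target genes sit almost entirely below 0 (median -0.24), all 3 Rb family genes sit above 0, and Ccnd2 and Ccnj lie beyond 2-fold.

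Agreement between probe sets was limited. Of 20 members with at least 2 probe sets that passed the floor on both arrays, all probe sets had the same sign in 13 and different signs in 7 (Ccnh, Wee1, Skp2, Rbl1, E2f2, E2f5 and Mycn). Over all 4713 genes with as many, the signs agreed in 54.4%. The members whose probe sets agreed in sign and whose ratio passed the spread at their level were Ccnd1, Ccnd2, Cdk6, Ccne1, Ccnf, Cdc25a, Cdkn1a and E2f1. For Cdk6 this leaves out the probe set near the floor. The share of all genes that met both conditions was not counted. In Ccnd1 (-0.12 and -0.16), Ccnf (-0.16) and Cdc25a (-0.12) the other probe sets had ratios smaller in size than that spread.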

How the data were processed

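The deposited values are log2 signals of 45101 probe sets on each array. On the linear scale their 2% trimmed mean was 500.0 for each. MAS5 made them, per the submitters' processing notes. It scales each array and treats every probe set alone, so that dim probe sets are noisy. The sources used here give neither its version nor detection calls. From these values, 64 control probe sets were set aside. Of the rest 34945 had 1 gene symbol, 932 had several and stayed unnamed, and 9160 were not listed. Values under the floor were raised to it, and the probe set with the highest mean stood for a gene. Ratios against the floor are bounds. All 39 members are named. Of each other list, the 4 genes above the floor on both arrays with the largest ratios are named, with any further ones at 2-fold. Members and lists were chosen with earlier results of these data known. The steps were tested on simulated data with little noise and changes of more than 2-fold in genes well above the floor. Recovery of smaller differences was not tested. Alternatives were other scalings, no floor or one at the 30th or 70th percentile, a pseudocount, averaging the probe sets of a gene, dropping those whose suffix (_s_at, _x_at, _a_at) marks possible matches to several transcripts, and a 3-fold threshold. Python 3.11.15, numpy 2.4.6, pandas 2.3.3, scipy 1.17.1, statsmodels 0.14.6 (loess, span 0.4) and matplotlib 3.10.9 were used. Promoters are from RefSeq, GRCm38.p6.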

Additional observations from a re-analysis of the deposited data

How the results depend on the processing

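Ccnd2 was at 2-fold under every scaling, floor and probe set rule tried. The count of members at 2-fold was 1 throughout, except 2 with spike-in scaling, which added Cdkn1b, and 0 at a 3-fold threshold. The count at 1.5-fold was 4, between 3 and 5 under most alternatives, 7 with spike-in scaling and 2 with a pseudocount in place of the floor. Among other cyclins and CDKs the count at 2-fold went from 1 to 0 with a 70th-percentile floor and with the pseudocount. Among CDK partners and other inhibitors it went from 0 to 1 with a 30th-percentile floor and with no floor. Why these counts moved was not tested beyond what each setting itself alters. The median over members stayed between 0.05 and 0.20. Of 360 single-member values under alternatives 355 moved by less than the spread at their level and 5 by more, those of Cdk6 (-0.28), Ccnh (-0.15), E2f2 (0.20) and Mycn (0.09) with the mean over probe sets and Cdk7 (0.41) without the suffixed probe sets. Many of the 360 could not move, because a changed floor or probe set rule often leaves the value of a member as it was. No member at 2-fold reversed. With 1 array per group no array could be left out. No paired analysis was possible because each group has 1 array and the labels give no replicate numbers.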

Other observations

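Promoter elements of the cell cycle were also set against the ratios of all measured genes, as a description with no test. Of 9559 measured genes with a promoter entry, 504 (5.27%) held an E2F motif in the 250 bases before the start. Their median ratio was 0.01, against 0.03 for genes without it. Genes with a CHR had a median of 0.02 against 0.03 without, genes with CCAAT 0.03 against 0.02, and genes with the E-box 0.0070 against 0.03.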
